A study of Rattus norvegicus with 9 samples.

Results

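Glucose enters blood cells through facilitative transporters and is committed to glycolysis by a few regulated enzymes, and 10 genes of this entry and control step were followed in whole blood of rats with experimental stroke. They are the transporters Slc2a1 and Slc2a3, the hexokinases Hk1, Hk2 and Hk3, the liver-type phosphofructokinase Pfkl, the enzymes Pfkfb3 and Pfkfb4 that set the level of its activator, the pyruvate kinase Pkm and the lactate dehydrogenase Ldha. Members were taken by symbol, with the transcript cluster of the highest mean over all arrays for each gene. Of the 10 genes 8 had a value, among 18166 genes measured. No cluster in the annotation used here was listed for Hk1. The only cluster of Pkm also carried the symbols of processed copies of the gene, so its signal could not be given to Pkm alone and no value is reported.

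The arrays measured blood RNA of 9 male Sprague-Dawley rats, 3 in each group, with a separate array for each rat; the age of the rats is not given in the sources used here. Rats of the QDBS/MCAO group (Qi deficiency blood stasis, here called QDBS) were made to swim to exhaustion daily over 21 days. Those of the YDBS/MCAO group (Yin deficiency blood stasis, here called YDBS) were given hydrocortisone into the muscle at 45 mg/kg a day over 13 days and then epinephrine under the skin for 1 day (0.36 mg/kg). After either pretreatment the rats had the middle cerebral artery occluded with a filament (MCAO), whereas Sham rats had the surgery without the filament and formed the control group. Blood came from the abdominal aorta of every rat at 24 h of reperfusion. Each model thus differed from Sham in its pretreatment and in the occlusion at once, and the parts of these in any difference from Sham cannot be told apart. No group had MCAO alone.

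In textbook biology, GLUT1 and GLUT3, the products of Slc2a1 and Slc2a3, carry glucose across the plasma membrane down its gradient, and hexokinases trap it inside the cell by phosphorylation. Phosphofructokinase is the main control point of the pathway, and its potent activator fructose-2,6-bisphosphate is made and removed by the bifunctional PFKFB enzymes. Lactate dehydrogenase A turns pyruvate into lactate and regenerates the NAD+ that glycolysis needs. Neutrophils rely largely on glycolysis, mature red cells and platelets carry their own sets of these enzymes, and hypoxia-inducible factor (HIF) is known to induce several of the genes.

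Signals are on the log2 scale, so a difference of 1 is a doubling of the signal. Array medians were 3.94 to 4.05 in the model groups and 4.15 to 4.21 in Sham, and 75th percentiles 5.53 to 5.57 in the model groups and 5.28 to 5.37 in Sham, so the shape of the distribution differed between model and Sham arrays. The median log2 fold change (FC) of all genes was -0.15 in QDBS and -0.16 in YDBS against Sham, and 0.02 in QDBS against YDBS. Centring arrays on their 75th percentile moved the first pair of medians to -0.38 and -0.37. Differences from Sham under about this size therefore depended on the scaling, and larger ones could as well. The deposited signals came from RMA, which includes a quantile normalization. The quantile normalization named here was a further one, run on the 18166 genes only. In YDBS against Sham, it took Pfkfb3 from 0.47 to -0.0021 and Slc2a1 from 0.73 to 0.26. The scalings that changed a direction are given beside the genes. Calls needed both a false discovery rate (FDR, Benjamini-Hochberg, from limma) under 0.05 and a log2 FC beyond 1 in either direction. The study's methods name the same screen.

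The promoters of 4 members are shown because they differ in the core motif of HIF, and because Hif1a, the gene of its oxygen-regulated subunit, was called higher in both models. They are RefSeq sequences of build GRCr8, with 250 bases before and 50 after the transcription start. Capitals mark the motif searched, ACGTG or GCGTG on either strand, which overlaps the E-box CACGTG. Slc2a1 (chr5:138002272-138002571, plus strand), Pfkfb3 (chr17:71944683-71944982, plus strand), Hk2 (chr4:116841226-116841525, minus strand) and Ldha (chr1:106507842-106508141, plus strand) read:
Slc2a1: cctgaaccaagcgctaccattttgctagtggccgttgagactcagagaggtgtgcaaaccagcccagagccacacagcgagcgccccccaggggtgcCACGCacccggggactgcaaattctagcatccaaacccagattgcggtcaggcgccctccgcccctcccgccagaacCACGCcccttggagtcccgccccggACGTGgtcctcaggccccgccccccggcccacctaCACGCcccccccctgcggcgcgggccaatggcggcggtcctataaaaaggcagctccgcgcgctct
Pfkfb3: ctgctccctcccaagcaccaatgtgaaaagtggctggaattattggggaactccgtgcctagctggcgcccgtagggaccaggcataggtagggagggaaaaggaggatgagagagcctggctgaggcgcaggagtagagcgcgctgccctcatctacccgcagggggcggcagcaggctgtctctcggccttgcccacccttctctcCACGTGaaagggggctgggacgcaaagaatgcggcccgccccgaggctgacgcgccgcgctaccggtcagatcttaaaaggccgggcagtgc
Hk2: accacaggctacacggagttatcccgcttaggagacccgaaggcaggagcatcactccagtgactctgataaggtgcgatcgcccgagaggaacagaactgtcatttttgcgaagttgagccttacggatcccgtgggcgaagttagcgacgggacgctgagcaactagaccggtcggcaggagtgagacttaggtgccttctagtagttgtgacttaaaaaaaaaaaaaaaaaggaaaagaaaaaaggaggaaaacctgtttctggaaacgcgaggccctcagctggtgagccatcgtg
Ldha: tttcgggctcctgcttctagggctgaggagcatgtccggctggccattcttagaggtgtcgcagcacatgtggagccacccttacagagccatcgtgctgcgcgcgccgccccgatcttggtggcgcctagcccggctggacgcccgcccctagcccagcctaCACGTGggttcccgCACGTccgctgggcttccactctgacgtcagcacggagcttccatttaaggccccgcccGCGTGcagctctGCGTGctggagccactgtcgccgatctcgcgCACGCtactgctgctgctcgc
The motif occurred 4 times in the window of Slc2a1, 2 times in that of Pfkfb3, at overlapping places on the opposite strands of its E-box, and 6 times in that of Ldha. In Ldha 2 of the 6 likewise overlapped on the opposite strands of its E-box. The windows of Hk2 and Pfkfb4 held no match, that of Pfkl held 2 and that of Hk3 held 1. RefSeq promoters were matched by symbol for 7 of the 8 measured members, and 5 of these 7 held the motif, against 41.6% of 33469 promoters of the same length. The E-box was found in 2 of the 7 (Pfkfb3 and Ldha), against 6.42% of all promoters. The glucocorticoid receptor half-site TGTTCT, searched on both strands, was found in 0 of the 7 windows, against 20.7% of all promoters. No promoter of Slc2a3 was matched. A match describes these letters in this window and is not a binding site.

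Among the transporters, Slc2a3 was up-regulated in YDBS when compared with Sham and stood at about the Sham level in QDBS. Its log2 signal was 6.66, 6.90 and 7.12 in QDBS rats, 7.79, 8.19 and 8.41 in YDBS rats, and 6.86, 7.07 and 6.82 in Sham rats. All YDBS arrays lay above all other arrays, while QDBS and Sham arrays overlapped. The means were 6.89 ± 0.23 in QDBS, 8.13 ± 0.32 in YDBS and 6.92 ± 0.14 in Sham (SD, n = 3 each). Against Sham the log2 FC in YDBS was 1.21 (standard error 0.17, FC 2.32, FDR = 0.000343 from limma), with a 95% confidence interval of 0.83 to 1.60. In QDBS it was -0.02 (95% confidence interval -0.41 to 0.36, FDR = 0.917), and the sign of this difference turned with the scaling (0.14 after centring on the array median). Slc2a3 was the only measured member called in any comparison with Sham. Its FDR stayed under 0.05 in YDBS under every alternative, but quantile normalization and cyclic loess brought the log2 FC to 0.76 and 0.84, below the fold criterion.

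Slc2a3 was also the only measured member called between the models, with lower signal in QDBS than in YDBS by a log2 FC of -1.24 (standard error 0.17, ratio 0.424, FDR = 0.0236 from limma). The size of this difference varied little with the scaling, between -1.27 and -1.18. The call was lost in most fits with fewer arrays. With 1 array left out at a time the log2 FC lay between -1.41 and -1.10, and the FDR stayed under 0.05 in 3 of 9 such fits. Leaving out QDBS replicate 1 gave 0.139 and QDBS replicate 2 gave 0.145. Leaving out YDBS replicate 2 gave 0.169 and YDBS replicate 3 gave 0.0505, and the absence of Sham replicate 1 (0.0584) or Sham replicate 3 (0.0628) ended the call. A fit of the models by themselves, with no Sham array, gave 0.0761.

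Slc2a1, the widespread basal transporter, had a signal of 6.70, 7.13 and 6.74 in QDBS, 6.93, 7.14 and 7.57 in YDBS, and 6.52, 6.38 and 6.54 in Sham. Both model groups lay wholly above Sham and overlapped with each other. In YDBS the mean was 7.21 ± 0.32, against 6.48 ± 0.09 in Sham, a log2 FC of 0.73 (standard error 0.17, FC 1.66, FDR = 0.00670), which passed the FDR and not the fold criterion. In QDBS the mean was 6.86 ± 0.24, a log2 FC of 0.38 against Sham (FDR = 0.10). The direction in YDBS held under each scaling, between 0.26 and 0.94, but the FDR was 0.259 after quantile normalization and 0.104 after cyclic loess. In QDBS the difference was -0.05 after quantile normalization and -0.00052 after cyclic loess. Between QDBS and YDBS the log2 FC was -0.36 (FDR = 0.527).

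**Figure D1:**
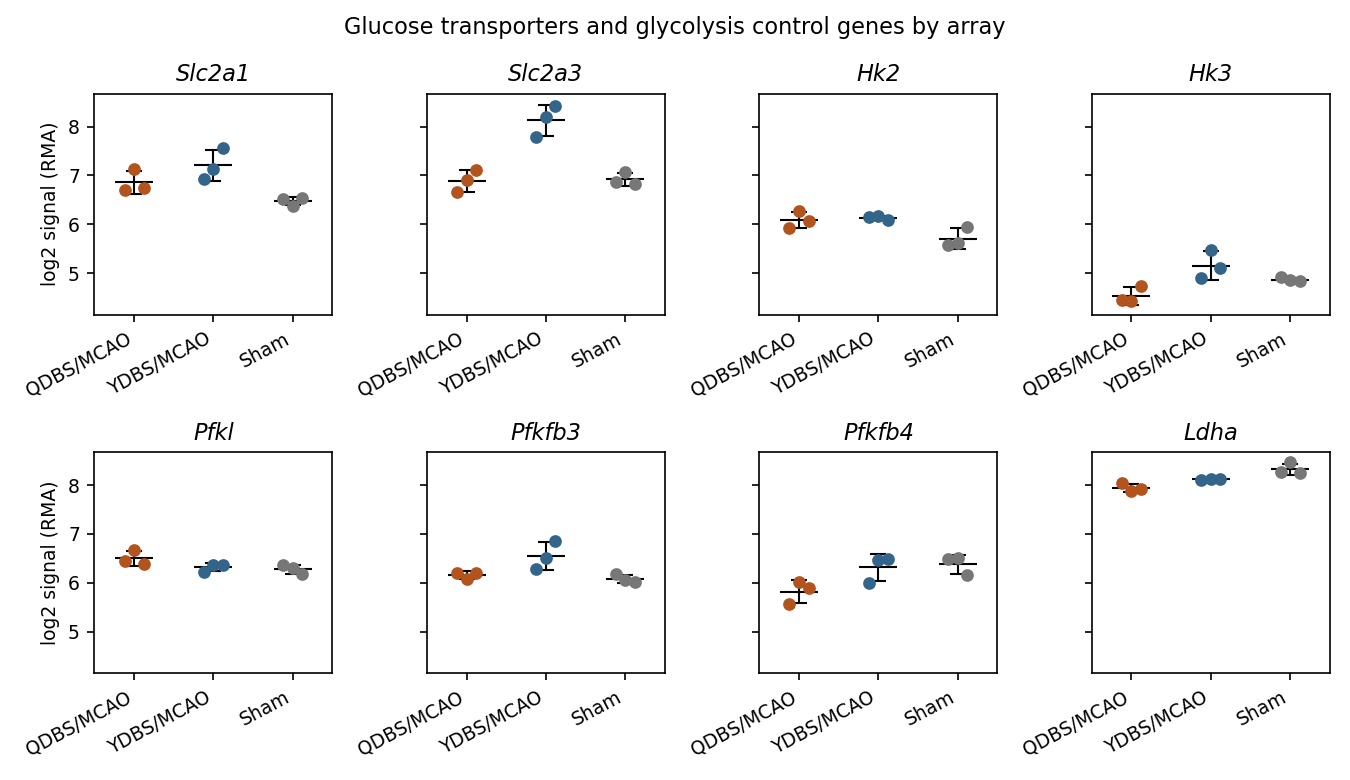
Log2 signal of the 8 measured members on each of 9 arrays, with QDBS/MCAO, YDBS/MCAO and Sham from left to right in each panel; points are rats, horizontal bars the group means and whiskers 1 SD. Slc2a3 is high on all 3 YDBS arrays (7.79 to 8.41), above every QDBS and Sham array (6.66 to 7.12).

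Neither measured hexokinase was called in any comparison. Hk2, the inducible form that binds mitochondria, had a signal of 5.93, 6.27 and 6.06 in QDBS, 6.15, 6.18 and 6.10 in YDBS, and 5.57, 5.61 and 5.95 in Sham. All YDBS arrays lay above Sham, and QDBS overlapped with Sham at 1 array of each group. The log2 FC against Sham was 0.38 in QDBS (standard error 0.14, FDR = 0.0457) and 0.43 in YDBS (standard error 0.14, FDR = 0.0255), past the FDR and under the fold criterion. After quantile normalization the log2 FC was -0.03 in QDBS and 0.02 in YDBS. With 1 array left out at a time, the FDR stayed under 0.05 in 2 of 9 fits in QDBS (highest 0.149, without QDBS replicate 2) and in 4 of 9 in YDBS (highest 0.0777, without YDBS replicate 2). QDBS and YDBS differed by -0.06 (FDR = 0.976).

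Hk3, a hexokinase of myeloid cells, had a signal of 4.45, 4.43 and 4.74 in QDBS, 4.90, 5.48 and 5.11 in YDBS, and 4.92, 4.86 and 4.84 in Sham. QDBS lay wholly below both other groups, and YDBS overlapped with Sham at its lowest array. The means were 4.54 ± 0.18 in QDBS, 5.16 ± 0.29 in YDBS and 4.87 ± 0.04 in Sham. The log2 FC was -0.33 in QDBS (FDR = 0.105) and 0.29 in YDBS (FDR = 0.141) against Sham, and -0.62 in QDBS against YDBS (standard error 0.16, FDR = 0.120), so no difference passed the FDR. After centring on the 75th percentile the value in QDBS was -0.55 with FDR = 0.0107, and after centring on the median the value in YDBS was 0.49 with FDR = 0.0394. Hk3 was the dimmest measured member, at the percentile 58.3 of all genes by mean signal.

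Of the phosphofructokinase step, Pfkl, the liver-type catalytic subunit, had a signal of 6.44, 6.67 and 6.39 in QDBS, 6.23, 6.36 and 6.37 in YDBS, and 6.36, 6.30 and 6.18 in Sham. The log2 FC was 0.22 in QDBS (FDR = 0.156) and 0.04 in YDBS (FDR = 0.795) against Sham, and 0.18 in QDBS against YDBS (FDR = 0.728). Although the QDBS arrays did not overlap with Sham, the direction in both models turned under centring on the 75th percentile (-0.01 in QDBS and -0.17 in YDBS), quantile normalization (-0.21 in QDBS and -0.42 in YDBS) and cyclic loess (-0.14 in QDBS and -0.31 in YDBS).

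Pfkfb3, the isoform of the activating enzyme with the strongest kinase activity, had a signal of 6.21, 6.07 and 6.21 in QDBS, 6.28, 6.51 and 6.86 in YDBS, and 6.19, 6.05 and 6.02 in Sham. YDBS lay above both other groups, which overlapped. The log2 FC in YDBS was 0.47 (standard error 0.15, FDR = 0.0257), past the FDR and under the fold criterion, and in QDBS 0.08 (FDR = 0.681). The difference in YDBS was 0.26 (FDR = 0.149) after centring on the 75th percentile, 0.13 (FDR = 0.575) after cyclic loess and -0.0021 (FDR = 0.993) after quantile normalization. Without YDBS replicate 3, the highest array, it was 0.31 (FDR = 0.0975). In QDBS the sign turned with the same scalings (-0.15, -0.27 and -0.35). QDBS against YDBS gave -0.39 (FDR = 0.341).

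Pfkfb4, known as a hypoxia-inducible isoform, was the member with the lowest log2 FC in QDBS. Its signal was 5.57, 6.01 and 5.89 in QDBS, 6.0, 6.47 and 6.48 in YDBS, and 6.49, 6.50 and 6.17 in Sham. QDBS arrays lay below all Sham arrays, and YDBS overlapped with both groups. The log2 FC was -0.56 in QDBS (standard error 0.17, FDR = 0.0236), past the FDR and under the fold criterion, and -0.07 in YDBS (FDR = 0.750). In QDBS the direction was kept under each scaling, between -0.98 and -0.40, with FDR = 0.114 after centring on the array median, and the FDR stayed under 0.05 in 6 of 9 fits with 1 array left out. In YDBS the sign turned after median centring (0.13). QDBS against YDBS gave -0.49 (FDR = 0.285).

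At the end of the pathway, Ldha, at the percentile 96.2 of all genes by mean signal, had a signal of 8.04, 7.88 and 7.91 in QDBS, 8.11, 8.13 and 8.13 in YDBS, and 8.27, 8.47 and 8.24 in Sham. The arrays of the 3 groups did not overlap, with QDBS lowest and Sham highest. The log2 FC was -0.38 in QDBS (standard error 0.11, FDR = 0.0194), past the FDR and under the fold criterion, and -0.20 in YDBS (FDR = 0.153), and -0.18 in QDBS against YDBS (FDR = 0.684). In QDBS the direction was kept under each scaling, between -0.70 and -0.22, with FDR = 0.151 after centring on the array median. Without QDBS replicate 2 or 3 the FDR was 0.0577 and 0.0636. In YDBS the difference was 0.00037 after median centring and -0.55 (FDR = 0.00814) after quantile normalization.

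Counted together, 0 of 8 measured members were called higher and 0 lower in QDBS against Sham, where 9.62% of all genes were called higher and 1.36% lower. By the FDR alone 1 was higher (Hk2), against 20.0% of all genes, and 2 were lower (Ldha and Pfkfb4), against 22.9%. In YDBS against Sham 1 of 8 was called higher (Slc2a3) and 0 lower, against 10.4% and 0.919% of all genes. By the FDR alone 4 were higher (Slc2a1, Slc2a3, Hk2 and Pfkfb3), against 20.5%, and 0 lower, against 25.3%. The median log2 FC over the 8 was 0.03 in QDBS and 0.36 in YDBS. No measured member was among the dimmest 40% of genes, and over the genes left without these the medians were 0.08 in QDBS and 0.07 in YDBS.

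In QDBS against YDBS 0 of 8 members were called higher and 1 lower (Slc2a3), where 0% of all genes were called higher and 0.330% lower. By the FDR alone the counts were also 0 and 1, against 0.0110% and 0.446%. The median over the 8 was -0.37. Arrays of the compared groups did not overlap for 2 members that were higher and 3 that were lower in QDBS than in Sham, against 22.8% and 31.3% of all genes. For YDBS against Sham these counts were 4 and 1, against 23.4% and 33.3%. For QDBS against YDBS they were 1 (Pfkl) and 4 (Slc2a3, Hk3, Pfkfb3 and Ldha), against 9.79% and 8.65%. Both models share the Sham arrays, so their values against Sham are not independent.

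**Figure D2:**
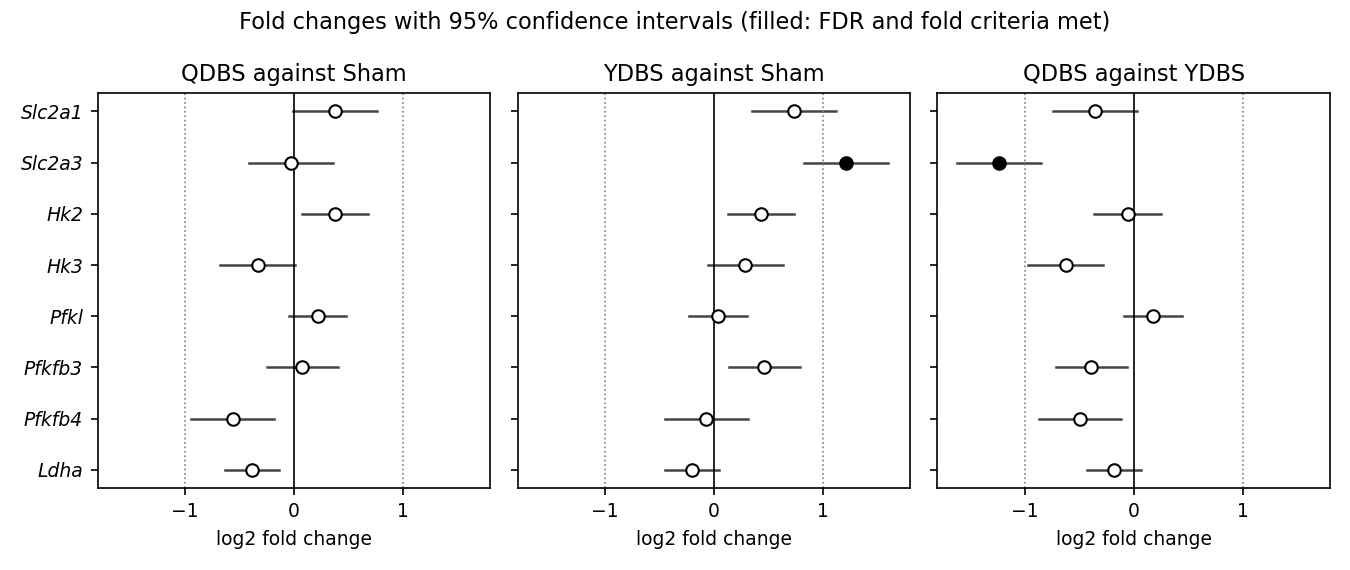
Log2 FC of each measured member with its 95% confidence interval from limma in QDBS against Sham, YDBS against Sham and QDBS against YDBS; filled points met the FDR and fold criteria and dotted lines mark a log2 FC of -1 and 1. Only Slc2a3 is filled, at 1.21 in YDBS against Sham and at -1.24 in QDBS against YDBS.

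Members of a family were also set against each other within each array, which removes any shift common to an array. With 3 rats in each group the exact permutation test, two-sided, cannot give a p below 0.1, and p-values were adjusted over 9 tests. The signal of Slc2a3 minus that of Slc2a1 was -0.03, -0.23 and 0.38 in QDBS, 0.85, 1.05 and 0.85 in YDBS, and 0.34, 0.69 and 0.28 in Sham. YDBS thus did not overlap with either other group, with a difference of 0.48 against Sham (exact permutation p = 0.1, adjusted p = 0.15). QDBS differed from YDBS by -0.88 (exact permutation p = 0.1, adjusted p = 0.15) and from Sham by -0.40 (exact permutation p = 0.3, adjusted p = 0.386).

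For Hk3 minus Hk2 the differences were -1.48, -1.84 and -1.32 in QDBS, -1.25, -0.70 and -0.99 in YDBS, and -0.65, -0.75 and -1.11 in Sham. QDBS lay below both other groups, by -0.71 against Sham and by -0.57 against YDBS (exact permutation p = 0.1 and adjusted p = 0.15 for each). YDBS overlapped with Sham (-0.14, exact permutation p = 0.6), and the sign of this difference turned under quantile normalization (0.14) and cyclic loess (0.21). For Pfkfb4 minus Pfkfb3 they were -0.64, -0.06 and -0.32 in QDBS, -0.28, -0.04 and -0.38 in YDBS, and 0.30, 0.45 and 0.15 in Sham. Both models lay below every Sham array, by -0.64 in QDBS and -0.53 in YDBS (exact permutation p = 0.1 and adjusted p = 0.15 for each), and overlapped with each other (-0.10, exact permutation p = 0.6). These are unequal changes of signals and not levels of one gene relative to another, since probes of different genes differ in brightness.

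**Figure D3:**
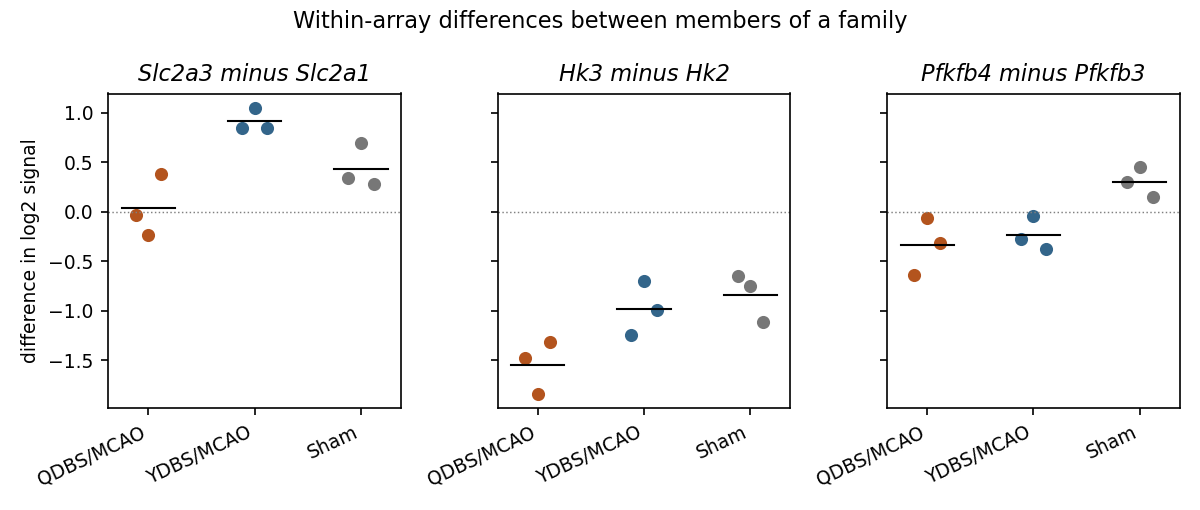
Difference in log2 signal between 2 members of a family on each of 9 arrays, with QDBS/MCAO, YDBS/MCAO and Sham from left to right; points are rats and bars group means. Pfkfb4 minus Pfkfb3 is below 0 on all 6 model arrays and above 0 on all 3 Sham arrays.

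Blood is a mixture, and in these bulk samples fewer cells of a type and less RNA per cell cannot be told apart. Like Slc2a3, the mean signal of the neutrophil markers was highest in YDBS. Over 15 of 15 markers measured it was 6.71 to 7.36 in QDBS, 7.50 to 8.14 in YDBS and 6.88 to 7.02 in Sham. Of these markers 8 were called higher and 1 lower in YDBS against Sham, 0 and 3 in QDBS against Sham, and 0 and 3 in QDBS against YDBS. Of all genes, in the same order, 10.4% and 0.919%, 9.62% and 1.36%, and 0% and 0.330% were called. The markers did not all follow Slc2a3 in QDBS. By the FDR alone 3 were higher there than in Sham (Cxcr2 0.82, Fpr1 0.95 and Itgam 0.58) and 3 lower, against 20.0% and 22.9% of all genes. Csf3r, the receptor of granulocyte colony-stimulating factor, had a log2 FC of 1.05 in YDBS (FDR = 0.000415) and 0.02 in QDBS (FDR = 0.936) against Sham, and of -1.03 in QDBS against YDBS (FDR = 0.0290). The call of Csf3r in YDBS ended without YDBS replicate 3 (0.97) or Sham replicate 3 and under each scaling but median centring (0.84 to 0.93). Between the models the markers called were Csf3r, Cxcr2 and Il1r2. All 3 calls were lost without QDBS replicate 1 or 2, YDBS replicate 2 or 3, or Sham replicate 1 or 3, with FDR between 0.0649 and 0.199 for Csf3r, between 0.0839 and 0.234 for Cxcr2 and between 0.0708 and 0.21 for Il1r2, and in a fit of the models by themselves (0.0761, 0.0957 and 0.0869). Between the models the call of Csf3r also ended after quantile normalization (-0.89, FDR = 0.063), after cyclic loess (-0.97) and with array weights (-0.96). That of Cxcr2 ended after quantile normalization (FDR = 0.0901) and with a trended and robust variance (FDR = 0.0545). The methods' t-test ended all 3 (FDR = 0.344, 0.379 and 0.374). The 3 markers called lower in QDBS against Sham were the granule genes Mmp9, Lcn2 and Camp. The call of Mmp9 ended without QDBS replicate 1 (-0.82, FDR = 0.132), QDBS replicate 2 (FDR = 0.0525) or any 1 of the Sham arrays (FDR between 0.0566 and 0.0948) and after median centring (FDR = 0.0765). That of Camp ended without QDBS replicate 1 (-0.83) or Sham replicate 1 (-0.94) and after median centring (-0.95). The marker called lower in YDBS was Lcn2 (log2 FC -1.01), whose call ended without YDBS replicate 1 (-0.84) or 2 (-0.96) or Sham replicate 1 (-0.98) or 3 (-0.99) and after median centring (-0.81). Mpo, Elane and Ltf, also granule genes, were not called in any comparison. Their mean signals were at the percentiles 48.3, 55.3 and 23.3 of all genes, so the lack of a call says little. The part of neutrophil number or content in the difference of Slc2a3 was not tested.

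**Figure D4:**
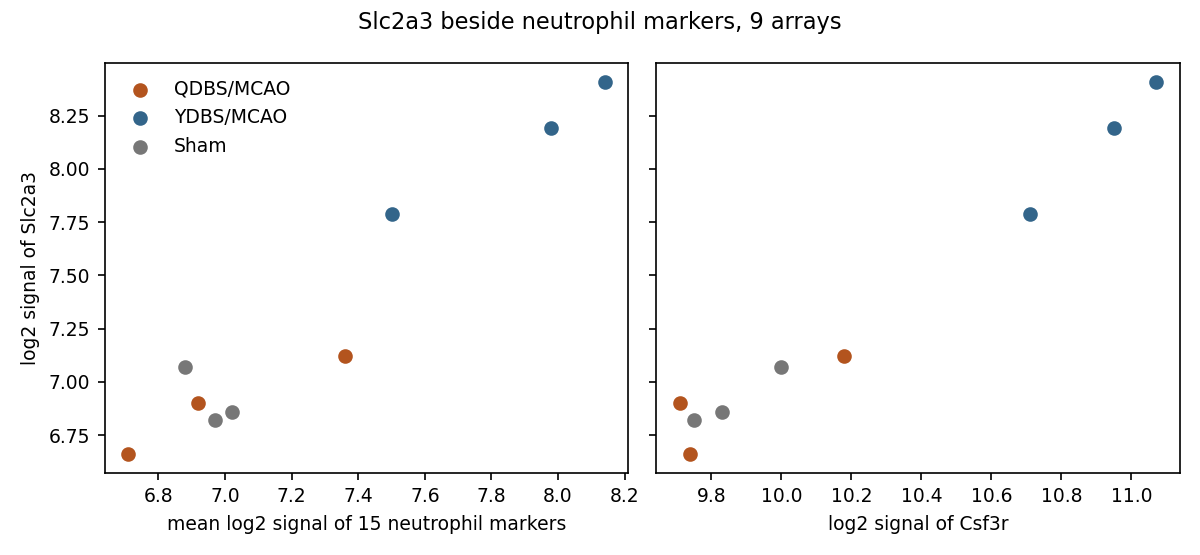
Log2 signal of Slc2a3 against the mean log2 signal of 15 neutrophil markers (left) and against that of Csf3r (right); each point is 1 of 9 arrays, coloured by group. The 3 YDBS arrays are highest on both axes of both panels, and QDBS and Sham arrays lie together at the lower left.

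Markers of other blood cells moved as well. Calls are given against Sham, where 9.62% of all genes were called higher and 1.36% lower in QDBS, and 10.4% and 0.919% in YDBS. Over 9 of 13 platelet markers measured, the mean signal was 8.76 to 9.56 in QDBS, 9.23 to 10.22 in YDBS and 10.32 to 10.59 in Sham, highest in Sham as for Ldha, and 7 were called lower in QDBS and 1 in YDBS. Over 10 of 15 red cell markers it was 6.56 to 6.77 in QDBS, 7.01 to 7.70 in YDBS and 6.97 to 7.51 in Sham. Of these 3 were called lower in QDBS and 0 in YDBS. Sham replicate 2 (6.97) lay apart from Sham replicates 1 and 3 (7.51 and 7.49) there. It also did for T cell markers (7.07 against 7.59 and 7.61), but not for natural killer cell markers (5.66 against 5.72 and 5.66). T cell markers (12 of 12 measured) had means of 8.39 to 8.55 in QDBS, 7.78 to 8.04 in YDBS and 7.07 to 7.61 in Sham, with 5 called higher in QDBS and 2 in YDBS. B cell markers (8 of 10) had means of 7.28 to 8.12 in QDBS, 6.77 to 7.43 in YDBS and 6.0 to 6.56 in Sham, with 4 called higher in QDBS and 2 in YDBS. Natural killer cell markers (10 of 12) had means of 6.72 to 6.90 in QDBS, 6.66 to 6.98 in YDBS and 5.66 to 5.72 in Sham, with 5 called higher in each model. Monocyte markers (9 of 10) had means of 7.31 to 7.53 in QDBS, 7.42 to 7.56 in YDBS and 6.83 to 7.06 in Sham, with 1 called higher in QDBS and 2 in YDBS. For these 4 lists the mean of every model array lay above that of every Sham array. Calls of the blood cell lists did not all hold. In QDBS those of Cd28 (T cell), Cd79b and Ebf1 (B cell) and Ncr1 (natural killer cell) ended after quantile normalization and cyclic loess. In YDBS those of Cd2 (T cell) and Prf1 (natural killer cell) ended after quantile normalization. Median centring ended those of Klf1 (red cell) in QDBS and Gp5 (platelet) in YDBS. The monocyte markers did not move together. Their median log2 FC against Sham was -0.02 in QDBS (range -0.42 to 2.57) and 0.04 in YDBS (range -0.59 to 3.01). Markers of hepatocytes, which do not belong to blood, had means of 3.41 to 3.55 in the models and 5.22 to 5.91 in Sham, with 11 of 13 called lower in each model. The part of these in the differences of the members from Sham was not tested.

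Genes whose signals followed the members most closely over the 9 arrays were found by Pearson correlation and are given as a description, since the arrays share 3 group means. For Slc2a3 they were Csf3r (r = 0.987), Mboat7 (r = 0.985), an acyltransferase of phosphatidylinositol, and Adgrg3 (r = 0.975), an adhesion receptor of granulocytes. For Hk3 they were the phosphatase Dusp3 (r = 0.983), the lipolysis inhibitor G0s2 (r = 0.980) and the cytokine Osm (r = 0.964). Pfkfb3 was followed by Lats2, Slpi and Mettl9 (r = 0.981, 0.974 and 0.969), and Pfkfb4 by Kcnk12, Mmp9 and Klc4 (r = 0.947, 0.945 and 0.924), of which Mmp9 is a neutrophil granule protease. Slc2a1 was followed by Mob3a, Lacc1 and B4galt3 (r = 0.976, 0.972 and 0.967), Hk2 by Nae1, Gfpt1 and Dnaaf10 (r = 0.965, 0.962 and 0.951), and Pfkl by Hip1r, Wars2 and Mrpl41 (r = 0.966, 0.964 and 0.959). For Ldha they were Card19 (r = 0.986), Stx11 (r = 0.979), a syntaxin needed for secretion from platelets and cytotoxic cells, and F2rl2 (r = 0.978), a thrombin receptor of the PAR family.

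Among the members themselves, r over the 9 arrays was highest for Slc2a3 and Pfkfb3 (0.88), followed by Slc2a1 and Pfkfb3 (0.82), Slc2a3 and Hk3 (0.78) and the pair of transporters (0.77). Hk2 and Ldha ran against each other most strongly (-0.77). Slc2a1, Slc2a3 and Pfkfb3 shared a high YDBS group, whereas Hk3 and Pfkfb4 (r = 0.73) shared a low QDBS group.

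Other enzymes of glycolysis and other hexose transporters were also followed. Of 26 other glycolytic enzymes 19 were measured and 0 were called in either direction in any comparison. Of all genes 9.62% were called higher and 1.36% lower in QDBS against Sham, and 10.4% and 0.919% in YDBS. Between the models 0% were called higher and 0.330% lower. By the FDR alone 3 were higher and 5 lower in each model against Sham, and 0 differed between the models. By the same rule 20.0% of all genes were higher and 22.9% lower in QDBS, and 20.5% and 25.3% in YDBS. Between the models the shares were 0.0110% and 0.446%. The brightest were Gpi, the glucose-6-phosphate isomerase, with 10.30 ± 0.24 in QDBS, 10.16 ± 0.07 in YDBS and 9.95 ± 0.21 in Sham, and the aldolase Aldoa, with 9.26 ± 0.12 in QDBS, 9.44 ± 0.11 in YDBS and 9.36 ± 0.14 in Sham, and neither passed the FDR. Pfkp, another phosphofructokinase, had a signal of 7.06, 7.35 and 7.01 in QDBS, 7.25, 7.15 and 6.97 in YDBS, and 6.51, 5.58 and 6.4 in Sham. All model arrays lay above Sham. Its log2 FC in QDBS was 0.975 (FDR = 0.00526 from limma), past the FDR and under the fold criterion. Pfkp was singled out after its values were seen. Of 11 other hexose transporters, all measured, 6 passed the FDR as lower in each model, against 22.9% (QDBS) and 25.3% (YDBS) of all genes. In each model 1 was called lower, against 1.36% (QDBS) and 0.919% (YDBS). This was Slc2a4, the insulin-regulated GLUT4, with 4.82 ± 0.18 in QDBS, 4.81 ± 0.29 in YDBS and 5.95 ± 0.51 in Sham (log2 FC -1.14, FDR = 0.00345 in QDBS, and -1.15, FDR = 0.00311 in YDBS). Sham replicate 2 was the highest array for it, and without that array the log2 FC was -0.84 in QDBS and -0.85 in YDBS, which ended both calls, as did centring on the array median (-0.97 in QDBS and -0.94 in YDBS). Skeletal muscle also expresses Slc2a4 strongly, and over 8 of 12 muscle markers measured the mean signal was 3.95 to 4.03 in QDBS, 3.89 to 4.01 in YDBS and 4.28 to 4.59 in Sham, likewise highest in Sham replicate 2. By the FDR alone 5 of these 8 were lower in QDBS and 6 in YDBS, against 22.9% and 25.3% of all genes, and 0 were called. Their part in the result of Slc2a4 was not tested. The median log2 FC of the transporters was -0.53 in QDBS and -0.56 in YDBS.

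In the list of pyruvate and lactate fate 18 of 19 genes were measured, and 4 were called higher and 0 lower in each model against Sham, where 9.62% (QDBS) and 10.4% (YDBS) of all genes were called higher. Pdk3, a kinase that inactivates pyruvate dehydrogenase, had a signal of 6.82 ± 0.28 in QDBS, 7.65 ± 0.29 in YDBS and 5.42 ± 0.44 in Sham, a log2 FC of 1.40 in QDBS (FDR = 0.000892) and 2.23 in YDBS (FDR = 3.73e-05). Pdha1, the subunit that this kinase acts on, rose by 1.22 in QDBS (FDR = 0.000188) and 1.36 in YDBS (FDR = 8.08e-05), and Dld, the third enzyme of the complex, by 1.24 in QDBS (FDR = 8.48e-05) and 1.32 in YDBS (FDR = 4.87e-05). Emb, a partner protein of lactate transporters, rose by 1.15 in QDBS (FDR = 0.0398) and 1.90 in YDBS (FDR = 0.00367), but its call in QDBS ended without Sham replicate 2 (0.61, FDR = 0.0959), QDBS replicate 1 (FDR = 0.104), QDBS replicate 3 (FDR = 0.126) or YDBS replicate 1 (FDR = 0.0536). Quantile normalization ended the calls of Pdha1 in QDBS (0.82) and YDBS (0.89) and of Emb in QDBS (0.83), and so did cyclic loess. In QDBS, centring on the 75th percentile ended those of Pdha1 (0.99) and Emb (0.93). That of Emb in QDBS also ended with array weights (0.91) and with only the groups compared (FDR = 0.0703). The methods' t-test ended the calls of Emb in QDBS (FDR = 0.224) and YDBS (FDR = 0.093) and of Pdk3 in QDBS (FDR = 0.0515).

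Slc16a3, the lactate exporter MCT4 of glycolytic cells, was the pathway gene outside the members that was called between the models. Its signal was 7.23, 7.53 and 7.71 in QDBS and 8.32, 8.95 and 8.71 in YDBS, with 8.19, 7.83 and 8.08 in Sham between them. The log2 FC was -1.17 in QDBS against YDBS (standard error 0.18, FDR = 0.0327 from limma). Against Sham it was -0.55 in QDBS (FDR = 0.0332) and 0.62 in YDBS (FDR = 0.0185), past the FDR and under the fold criterion. As for Slc2a3, the call between the models was lost without QDBS replicate 1 (FDR = 0.179), QDBS replicate 2 (FDR = 0.156), YDBS replicate 2 (FDR = 0.204), YDBS replicate 3 (FDR = 0.0707), Sham replicate 1 (FDR = 0.0649) or Sham replicate 3 (FDR = 0.0797), and in a fit of the models by themselves (FDR = 0.0761).

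Side branches of glycolysis were listed as well. In the pentose phosphate pathway, with 6 of 8 genes measured, 0 were called in QDBS and 2 higher in YDBS, where 10.4% of all genes were called higher. These were the transaldolase Taldo1 (9.44 ± 0.28 in YDBS against 8.41 ± 0.26 in Sham, log2 FC 1.03, FDR = 0.000883) and the epimerase Rpe (log2 FC 1.25, FDR = 0.00190). Both calls ended without Sham replicate 2 (0.89 for Taldo1 and 0.96 for Rpe), and that of Taldo1 also without YDBS replicate 3 (0.88) and under the other scalings except median centring. In QDBS against Sham the log2 FC was 0.29 for Taldo1 (FDR = 0.185) and 0.76 for Rpe (FDR = 0.0251), the latter past the FDR and under the fold criterion. Of gluconeogenic genes 6 of 7 were measured, and 2 were called lower in QDBS and 1 in YDBS, against 1.36% and 0.919% of all genes. Pck1, the cytosolic PEP carboxykinase, fell by 1.32 in QDBS (FDR = 0.000172) and 1.38 in YDBS (FDR = 0.000114), and G6pc3, the ubiquitous glucose-6-phosphatase that neutrophils need, was down-regulated in QDBS, with 7.01 ± 0.06 against 8.30 ± 0.23 in Sham (log2 FC -1.30, FDR = 0.000152). G6pc3 was not called in YDBS, but the YDBS arrays (7.84, 7.51 and 7.27) also lay below every Sham array (8.25, 8.55 and 8.1). QDBS differed from YDBS in G6pc3 by -0.53 (FDR = 0.201). Pck1 is a liver gene and its signal of 3.74 ± 0.14 in QDBS and 3.67 ± 0.09 in YDBS, against 5.06 ± 0.36 in Sham, moved with the hepatocyte markers.

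In glycogen metabolism 14 of 16 genes were measured and 2 were called higher in each model, a share near the 9.62% (QDBS) and 10.4% (YDBS) of all genes. Ugp2, which makes the glucose donor of glycogen synthesis, had a log2 FC of 1.00 in QDBS (FDR = 0.000187) and 1.57 in YDBS (FDR = 1.02e-05), and Pgm2, a phosphoglucomutase family member, 1.03 in QDBS (FDR = 0.00110) and 1.39 in YDBS (FDR = 0.000152). In QDBS both lay at the fold criterion. That of Ugp2 ended without QDBS replicate 1 (0.98) or 3 (0.90) or Sham replicate 1 (0.99) or 2 (0.99), and that of Pgm2 without QDBS replicate 2 (0.96) or Sham replicate 2 (0.83). Each of these calls in QDBS also ended under centring on the 75th percentile, quantile normalization and cyclic loess.

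Regulators of glycolytic genes had the largest rises in the pathway lists, with 14 of 17 measured and 4 called higher and 0 lower in each model, against 9.62% (QDBS) and 10.4% (YDBS) of all genes called higher. Hif1a, the oxygen-regulated subunit of HIF, had a signal of 7.63, 7.74 and 7.97 in QDBS, 8.09, 7.84 and 7.92 in YDBS, and 5.75, 4.54 and 5.62 in Sham. Every model array lay above every Sham array, with a log2 FC of 2.47 in QDBS (standard error 0.26, FDR = 5.17e-05) and 2.64 in YDBS (standard error 0.26, FDR = 2.93e-05). Its partner Arnt rose by 1.00 in QDBS (FDR = 0.00106) and 1.22 in YDBS (FDR = 0.000278), but neither call held throughout. That in QDBS ended without QDBS replicate 2 (0.90) or Sham replicate 2 (0.83) and under each scaling but median centring. That in YDBS ended under quantile normalization (0.76) and cyclic loess (0.85). Nr3c1, the glucocorticoid receptor, had 6.73 ± 0.18 in QDBS, 6.92 ± 0.11 in YDBS and 4.46 ± 0.61 in Sham (log2 FC 2.28, FDR = 5.88e-05 in QDBS, and 2.46, FDR = 3.04e-05 in YDBS). Prkaa1, a catalytic subunit of the energy sensor AMPK, had 6.06 ± 0.17 in QDBS, 6.69 ± 0.14 in YDBS and 4.16 ± 0.49 in Sham (log2 FC 1.89, FDR = 7.27e-05 in QDBS, and 2.53, FDR = 1.08e-05 in YDBS). The calls of Hif1a, Nr3c1 and Prkaa1 were kept under each scaling and with each array left out. The mean signals of the T cell, B cell, natural killer cell and monocyte lists separated the model arrays from Sham as these 3 genes did, although the monocyte markers did not move together. The part of those cells in the result was not tested.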

How the data were processed

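Blood RNA of 9 rats was hybridised to Affymetrix Rat Gene 2.0 ST arrays, 3 in each of the QDBS, YDBS and Sham groups. The authors computed the deposited log2 signals of 30347 transcript clusters by RMA (Affymetrix Expression Console 1.1), a method of background correction, quantile normalization and probe summary. The genome build is not given in the sources used here.

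The array annotation listed 19086 clusters, of which 18511 carried 1 symbol and 575 several, and the last were left out; symbols of 18394 were updated through Entrez identifiers. For 291 genes with several clusters the one with the highest mean was kept, which left 18166 genes. No filter on low signal was used. Columns of other samples numbered 0. Arrays have no depth; 3 rats in each group limit the precision.

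A single limma model (version 3.58.1, R 4.3.3) held all 9 arrays and 3 group means. P-values were adjusted by Benjamini-Hochberg over all genes, and calls needed FDR under 0.05 together with log2 FC beyond 1 in either direction. The method was tested on simulated data. Differences within a family were tested by exact permutation (scipy 1.17.1). Alternatives were quantile normalization, centring on the median or the 75th percentile of each array, cyclic loess, a floor that drops the dimmest 40%, all clusters or their mean, only the groups compared, a trended and robust variance, array weights, a replicate block, the methods' t-test, the FDR alone, and leaving out each array.

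The members and gene lists were chosen with earlier results of these data known. The text names all members, up to 4 called genes of each other list in each comparison by lowest FDR or its 2 brightest genes where none was called, and the 3 genes with characterised symbols most correlated with each member. Gpi and Aldoa thus stand for glycolytic enzymes, and Pfkp and Ldhb were added after their values were seen. Samples are labelled as biological replicates.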

Additional observations from a re-analysis of the deposited data

Results flagged for a closer look

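Slc2a3 differed between the models by a log2 FC of -1.24 in QDBS against YDBS (limma), with 0 of 3 QDBS arrays as high as any of 3 YDBS arrays. Hk3 was flagged because all 3 QDBS arrays lay below the Sham mean and all 3 YDBS arrays above it, with a log2 FC of -0.62 in QDBS against YDBS. By that criterion the difference was not tested, and in the fit across all genes its FDR was 0.120.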

How the results depend on the processing

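By the FDR alone 3 members differed in QDBS and 4 in YDBS against Sham, in place of 0 and 1. In YDBS against Sham 0 members were called after quantile normalization or cyclic loess. In QDBS against YDBS 0 were called with only the groups compared or with the methods' t-test (Slc2a3 FDR = 0.344), and 0 to 1 with 1 array left out. The cause of these losses was not tested.

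Directions turned as follows. In QDBS against Sham, Slc2a3 was 0.14 after median centring, 0.08 with array weights and -0.14 to 0.09 with 1 array left out; Slc2a1 -0.05 after quantile normalization and -0.00052 after cyclic loess; Hk2 -0.03 after quantile normalization; Pfkl -0.01, -0.21 and -0.14 and Pfkfb3 -0.15, -0.35 and -0.27 after 75th percentile centring, quantile normalization and cyclic loess. In YDBS against Sham, Pfkfb4 was 0.13 after median centring, 0.03 with array weights and -0.18 to 0.09 with 1 array left out; Ldha 0.00037 after median centring; Pfkl -0.17, -0.42 and -0.31 after 75th percentile centring, quantile normalization and cyclic loess and -0.01 to 0.09 with 1 array left out; Pfkfb3 -0.0021 after quantile normalization. Hk2 in QDBS against YDBS was -0.15 to 0.02 with 1 array left out. Hk3 minus Hk2 in YDBS against Sham was 0.14 after quantile normalization and 0.21 after cyclic loess.

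Over all genes, the share of calls that were higher was 87.6% in QDBS and 91.9% in YDBS against Sham, 67.0% and 72.0% after 75th percentile centring, and 74.5% and 75.1% after quantile normalization. Calls in QDBS against YDBS numbered 60, but 3 with only the groups compared and 0 with the methods' t-test. With a replicate block Slc2a3 was -1.24 in QDBS against YDBS (FDR = 0.0312) and 1.21 in YDBS against Sham (FDR = 0.000395), and members called did not change in number. After removal of group means, r was -0.17 to 0.196 between arrays of the same number and -0.13 to 0.217 between arrays of different numbers. These ranges overlapped, so no signal shared by number was seen over all genes. With 3 arrays in each group this cannot show that the numbers carry no pairing or batch.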

Other observations

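Ldhb, the lactate dehydrogenase subunit of aerobic tissues, had the widest spread of the glycolytic enzymes. Its log2 signal was 6.85, 7.94 and 4.87 in QDBS, 4.30, 6.99 and 4.71 in YDBS, and 4.67, 5.89 and 4.49 in Sham. Each group held 1 or 2 rats well above the others, and the groups overlapped. Replicate 2 was the highest array of each group. Ldhb was singled out after its values were seen.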
